A study of Rattus norvegicus with 7 samples.

Results

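The regions described here are the 29435 SREBP1 peaks called in rat sciatic nerve, out of 283853 peaks in the 6 lists of the series. All peaks of the list were taken, and they were set in order by the number that ends each peak's name. The numbers start at 1 on every chromosome, so each chromosome's list was ordered by itself and divided into 10 equal sections of 2933 to 2951 peaks over the 21 chromosomes. The first section holds the lowest numbers. SREBP1 was mapped by ChIP-seq in sciatic nerve of wild type rats at postnatal day 15. The 99516 peaks of acetylated histone H3 lysine 27 (H3K27ac) that they were set against came from ChIP-seq in S16, a rat Schwann cell line that received no treatment. Nerve tissue and cell line therefore differ in their cells as well as in their antibody, and each is represented by 1 library. The nerve samples are labelled Schwann as cell type, but sciatic nerve also holds fibroblasts, endothelial cells and immune cells. A list of peak positions offers no marker with which to check the label.

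SREBP1 is a helix-loop-helix transcription factor made as a precursor in the membrane of the endoplasmic reticulum. It is cut free when sterols are low or insulin signals are high, enters the nucleus, and binds sterol regulatory elements and E-boxes near genes of fatty acid and cholesterol synthesis. Schwann cells draw heavily on these pathways while they build myelin, as they do in the young nerve. H3K27ac is deposited by the acetyltransferases CBP and p300 at active promoters and enhancers. A region acetylated in S16 is thus a candidate regulatory element of the Schwann lineage, as far as the line resembles the cells of the nerve.

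The numbers had an order of their own. In the order of the numbers, the next peak lay further along the chromosome in 94.9% of steps (27925 of 29414), so that each list fell into runs within which the position increased. There were 1510 runs in all, a median of 69 per chromosome, from 48 on chromosome 20 to 132 on chromosome 1. The runs lengthened along the list. The median peak of the first section sat in a run of 4 peaks, that of the fifth section in a run of 70 and that of the last section in a run of 218. On all 21 chromosomes the last section lay inside a single run, the last one, which held between 10.1% and 15.2% of a chromosome's peaks. Within a run the number therefore follows position. The sources used here do not say what value the numbering was made from, and the deposited score is 1 in every peak. The deposited SREBP1 peaks are all 485 bp wide, so differences in width between SREBP1 peaks play no part in the values that follow.

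SREBP1 peaks with the lowest numbers nearly all met chromatin that is acetylated in S16, and those with high numbers mostly did not. At least 1 bp of H3K27ac was met by 93.1% of the first section (2748 of 2951 peaks, 95% Wilson interval 92.2 to 94.0%). The share was lower in each successive section, at 82.1%, 68.3%, 57.3%, 48.98%, 43.3%, 36.2%, 30.8% and 28.3%, and ended at 24.4% in the last (715 of 2933, 22.9 to 26.0%). Over all 29435 peaks, 51.3% met H3K27ac. Neighbouring sections had intervals that did not overlap, with the exception of the eighth (29.2 to 32.5%) and the ninth (26.7 to 30.0%). The first section exceeded the last by 68.7 percentage points (66.9 to 70.5), or 3.82-fold. These intervals cover counting error only, treat peaks as independent although neighbours share their surroundings, and say nothing of the spread between animals or cultures, for which there are no replicates. No test was therefore made.

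**Figure D1:**
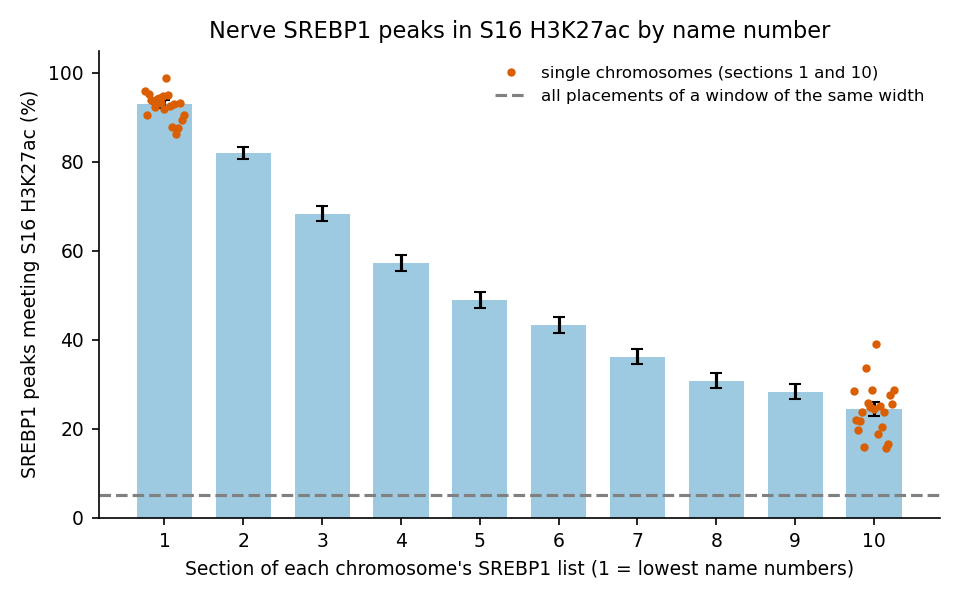
Share of nerve SREBP1 peaks that meet an S16 H3K27ac peak by at least 1 bp (y axis, %) in each section of the lists ordered by name number (x axis). Bars give all chromosomes together with 95% Wilson intervals, orange points the 21 single chromosomes in the first and last section, and the dashed line the 5.07% of all possible placements; the bars go from 93.1% to 24.4%, and every chromosome is higher in the first section than in the last.

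Even the last section met H3K27ac more often than evenly laid positions. A window of 485 bp met an H3K27ac peak at 5.07% of the positions at which it can be laid on the 21 chromosomes, once stretches over 1 Mb without a peak in any list were left out. Against that figure the first section stood 18.4-fold higher and the last section 4.81-fold. This is a count of positions, which are spread evenly over the chromosomes, whereas peaks of any kind gather in some parts of the genome.

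The decline was seen on each chromosome. The first section was above the last on all 21, by 59.8 points on chromosome 12 to 76.4 points on chromosome 6, with a median of 68.5. In the first section the share ranged from 86.2% on chromosome 17 to 98.8% on chromosome 12, and in the last section from 15.7% to 39.0% on the same 2 chromosomes. Chromosome 12 was thus high and chromosome 17 low at both ends of the list. Of the 9 steps from one section to the next, 6 to 9 were downward on each chromosome, with a median of 8. Chromosome 12 also had the highest share over its whole list (65.0% of 825 peaks) and chromosome 14 the lowest (43.8% of 1072).

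At the very head of the lists nearly every peak met S16 H3K27ac. Of the first 10 peaks of each chromosome, 207 of 210 (98.6%) met H3K27ac, and of the first 20, 409 of 420 (97.4%). At the other end, 55 of the last 10 of each chromosome (26.2% of 210) met it. With number 1 alone, 20 of 21 peaks met H3K27ac, in peaks of 348 to 3352 bp. The same 20 peaks met YY1, a zinc finger protein found at many promoters. TEAD1, through which the coactivators YAP and TAZ reach DNA, was met by 16 of the 21. The nuclear receptors NR2F2 and RXRG were met by 10 and 5. Over the whole first section the shares were 92.1% for YY1, 55.8% for TEAD1, 49.7% for NR2F2 and 27.7% for RXRG. Over all SREBP1 peaks they were 38.6%, 22.2%, 16% and 9.04%. The number 1 of chromosome 1 (187599253 to 187599737, build rn5) lay wholly inside an acetylated peak of 841 bp. It met all 4 of these factors, which were mapped in S16 by CUT&RUN. Those of chromosome 2 (208150553 to 208151037), 10 (89252728 to 89253212) and 5 (148549664 to 148550148) lay wholly inside peaks of 1629, 1818 and 1593 bp. That of chromosome 3 (71346516 to 71347000) shared 430 bp with a peak of 776 bp. The exception was the number 1 of chromosome 6 (9385826 to 9386310), which lay 4475 bp from the nearest H3K27ac peak and met no S16 list. No gene annotation or sequence of rn5 was used here, so positions stand in for names.

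Runs were counted back from the end of each chromosome's list, so that the last run of every chromosome is number 1. The last runs together held 3825 peaks, of which 24.4% met H3K27ac (23.0 to 25.8%). Each run further from the end had a higher share, through 29.0%, 32.4% and 36.5% to 84.0% (216 of 257 peaks) at run 21, with no step down among these 20 steps. Runs were followed to run 39, the last before 5 or fewer peaks of a run lay outside H3K27ac. From run 22 to run 39 the share moved between 82.7% and 92.8% with 87 to 231 peaks per run, and most of these intervals overlap each other. Inside long runs the decline was absent. Runs of at least 20 peaks were taken, which leaves out every peak of the first section, where no run was longer than 19, so the comparison holds for the later sections only. In these 328 runs, 41.3% of the lower-numbered peaks (4880 of 11803) and 44.4% of the higher-numbered ones (5311 of 11958) met H3K27ac, a difference of -3.07 points (-4.33 to -1.81). Between consecutive runs of this length on the same chromosome, the earlier run had the higher share in 186 of 291 pairs, the later one in 103, and 2 were equal. Position rises with the number inside a run, so the lower-numbered side is also the one nearer the start of the chromosome.

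**Figure D2:**
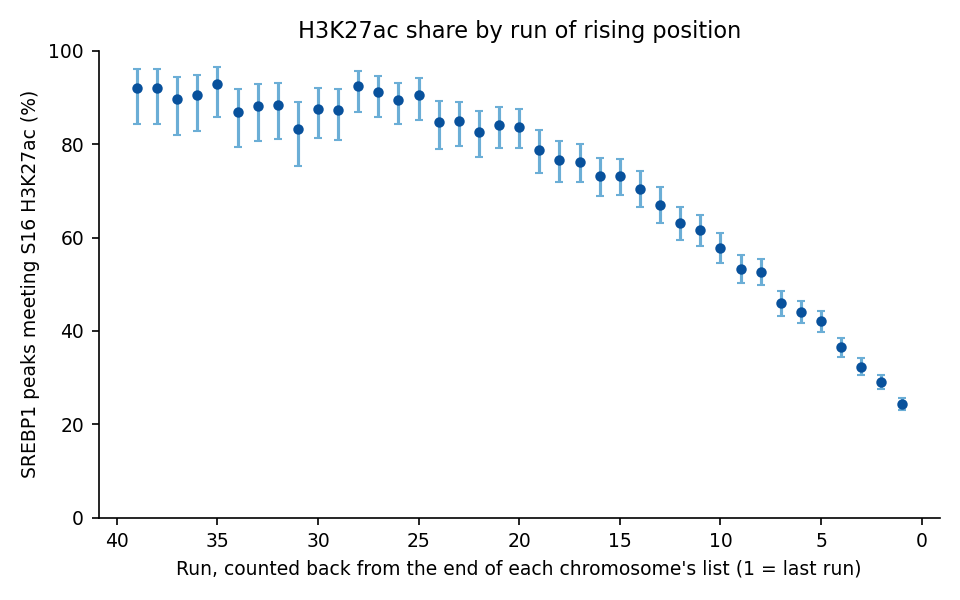
Share of SREBP1 peaks that meet S16 H3K27ac (y axis, %) by run, where a run is a stretch of the numbering in which position increases, counted back from the end of each chromosome's list (x axis, 1 is the last run) and pooled over 21 chromosomes. Points are shares with 95% Wilson intervals; they climb from 24.4% at run 1 to 84.0% at run 21 and then lie between 82.7% and 92.8%.

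Among peaks that met H3K27ac, those of the first section were covered in full more often and lay nearer its middle on a relative scale. Of the SREBP1 peaks that met H3K27ac, 61.3% in the first section were covered over their full 485 bp, against 47.7% in the last, a difference of 13.6 points (9.49 to 17.7). An H3K27ac peak narrower than 485 bp cannot cover an SREBP1 peak in full. The 10th percentile of the width met was 655 bp in the first section and 387 bp in the last. Over all peaks, the SREBP1 midpoint lay in H3K27ac for 80.5% of the first section and 17.8% of the last. These shares carry the difference in contact too. Of the peaks that met H3K27ac, the midpoint lay inside for 2376 of 2748 in the first section and 523 of 715 in the last. On a scale from 0 at the middle of the H3K27ac peak to 1 at its edge, the median place of those midpoints was 0.366 in the first section (0.353 to 0.383). It was between 0.406 and 0.462 in the other sections, and 0.433 in the last (0.386 to 0.476). The first section was therefore the most central on this scale, with an interval below those of sections 2 to 7, 9 and 10. The eighth section (0.369 to 0.447) overlapped it. The scale is relative to the width of the H3K27ac peak, and the distance from midpoint to edge in bp was not measured.

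With contact by 1 bp or more, the typical width of the H3K27ac peak met changed little along the list, but its spread did. Its median was 1160.5 bp in the first section (1141 to 1189 bp) and 1180 bp in the last (1111 to 1274 bp). It was highest in the third section, at 1311.5 bp (1272 to 1337 bp). For H3K27ac peaks that hold the SREBP1 midpoint, the first and last sections differed more. Their medians were 1230.5 bp (1202 to 1253) and 1358 bp (1290 to 1419), with intervals that do not overlap. The whole H3K27ac list had a median of 737 bp, but a wide peak offers more room: weighted by the number of window positions that meet each peak, the median was 1085 bp. The first and the last section both lay above this value with their intervals, by a small margin. Across peaks that met H3K27ac, the Spearman correlation of the number with the width was -0.018 over 15103 peaks, given as a description. The median in the first section was above that in the last on 13 of 21 chromosomes.

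Narrow acetylated peaks were scarce among those met at low numbers. The 10th percentile of the width met was 655 bp in the first section and 387 bp in the last. The 90th was 2076 bp in the first section, 2578 bp in the second and 2429 bp in the last. The H3K27ac list was divided by width into 4 classes of nearly equal size. Peaks in the narrowest class (231 to 367 bp) made up 0.946% of those met by the first section (26 of 2748, 0.646 to 1.38%). Their part was 8.81% in the last section (63 of 715, 6.95 to 11.1%), and 13.5% of window positions. The third class, from 738 to 1233 bp, showed the opposite course, from 39.7% of the first section to 26.7% of the last. The widest class (1234 to 9902 bp) made up 45.0% in the first section, 54.5% in the third and 47.1% in the last, against 42.5% of window positions. The widest class thus had its largest part in sections 3 to 5, and the third class in the first section.

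**Figure D3:**
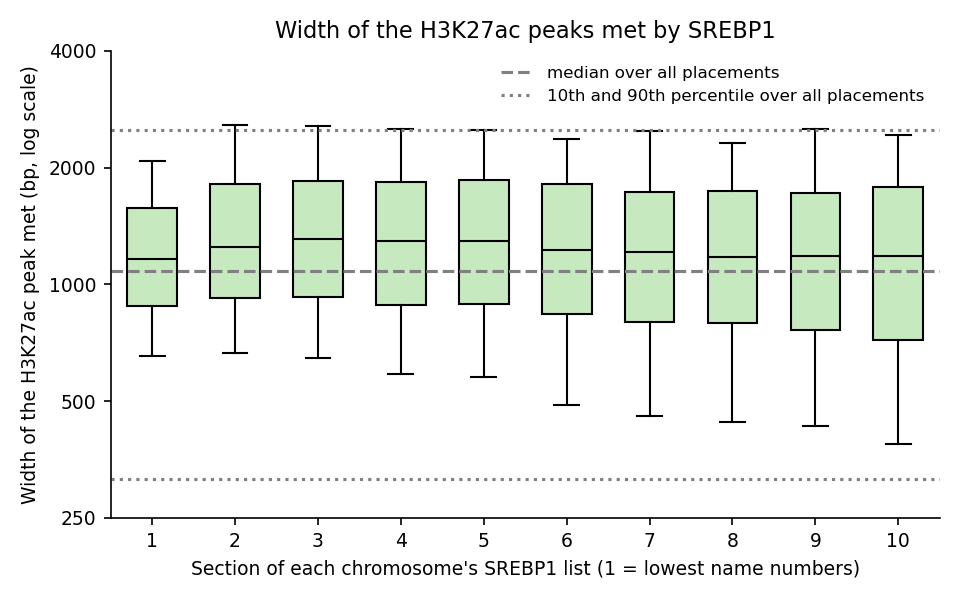
Width of the S16 H3K27ac peak met by each SREBP1 peak (y axis, bp, log scale) in each section of the lists (x axis). Boxes span the 25th to the 75th percentile with the median as a line, whiskers reach the 10th and 90th percentile, and grey lines give the same values over all window positions (median 1085, 314 and 2500 bp); the medians stay between 1160.5 and 1311.5 bp while the lower whisker goes from 655 to 387 bp.

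The same overlaps were also counted from the side of the acetylated peaks, so the asymmetry between sections follows from the shares above. An H3K27ac peak is said to hold an SREBP1 peak where it was the one met, by 1 bp or more. Of the 99516 H3K27ac peaks, 14.99% held an SREBP1 peak, 2.75% one of the first section (2740) and 0.717% one of the last (714). The share with any SREBP1 peak went from 2.39% in the narrowest class over 8.09% and 19.7% to 29.8% in the widest. A wide peak offers more room, and these shares are not corrected for it. In the narrowest class fewer H3K27ac peaks held a first-section peak (26) than a last-section peak (63). In the next 3 classes the first section led, with 393 against 124, 1092 against 191 and 1229 against 336. No H3K27ac peak held more than 2 SREBP1 peaks. Of the 187 that held 2, the widest was 4545 bp on chromosome 10 (85166918 to 85171462), with numbers 1083 and 1203, both in the fifth section. One of 4479 bp on chromosome 14 (107469071 to 107473549) held numbers 40 and 69, both in the first. The widest acetylated peak met by the first section was 7434 bp on chromosome 7 (12946625 to 12954058), around the SREBP1 peak at 12948618 to 12949102. The widest met by the last section was 4239 bp on chromosome 3 (141221482 to 141225720), around the SREBP1 peak at 141222723 to 141223207. Both of these SREBP1 peaks also met YY1 and TEAD1.

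SREBP1 peaks outside H3K27ac were closer to it when their number was low. The 203 peaks of the first section that met none lay a median of 504 bp from the nearest H3K27ac peak (322 to 950 bp), edge to edge. The median was 888.5 bp in the second section, 2365 bp in the third and 3917 bp in the fifth, and it reached 7434.5 bp in the last (6806 to 8283 bp, 2218 peaks). The last section was thus 14.8-fold farther away than the first. It was still nearer than an even spread of positions, whose median outside H3K27ac was 15925 bp. These outside positions were those in gaps of up to 1 Mb between H3K27ac peaks, a different set from that behind the 5.07%. With longer gaps included, the median was 18076 bp. Within 1 kb of H3K27ac lay 57.6% of the unmet peaks of the first section (50.8 to 64.2%), 16.6% of those of the last (15.1 to 18.2%) and 7.24% of outside positions.

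The order of distances held on every chromosome, with few peaks behind some values. The last section had the longer median on all 21. In the first section the medians ranged from 54 bp on chromosome 12, where they rest on 1 peak, to 8067 bp on chromosome X, where they rest on 5. Chromosome X was also the farthest in the last section, at 19364 bp over 37 peaks. Of all first-section peaks, 31 lay more than 10 kb from H3K27ac. The farthest were on chromosome 8 (75441115 to 75441599, 100673 bp away), 17 (11047762 to 11048246, 96191 bp) and X (77764823 to 77765307, 93119 bp), and none of these 3 met any S16 list.

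**Figure D4:**
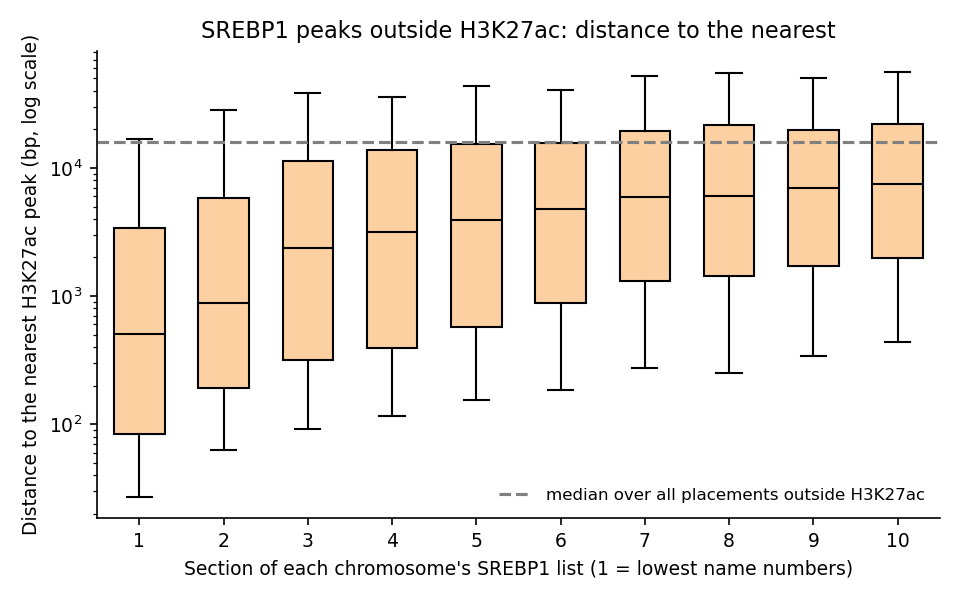
Distance from SREBP1 peaks that meet no H3K27ac to the nearest S16 H3K27ac peak (y axis, bp between edges, log scale) by section of the lists (x axis). Boxes span the 25th to the 75th percentile with the median as a line, whiskers reach the 10th and 90th percentile, and the dashed line is the median of 15925 bp over all window positions outside H3K27ac; the medians climb from 504 to 7434.5 bp and all stay under the line.

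The wider surroundings differed much less than the contact itself. Within 50 kb of their midpoint, first-section peaks had a mean of 6.81 H3K27ac peaks other than the one they met, and last-section peaks 5.70. Among peaks that met H3K27ac the mean was 6.79 in the first section and 7.70 in the last, so that it was no lower at high numbers. Among peaks outside it went the other way, from 7.0 to 5.05. Close by, the acetylated length within 5 kb on either side was taken with the H3K27ac peak met counted in. Its median was 1272 bp in the first section, 1324 bp in the second and 263 bp in the last. This length therefore carries the difference in contact as well as in surroundings. The second section, in which fewer peaks touched H3K27ac than in the first, had the largest acetylated length around it, with intervals that overlap slightly (1293 to 1359 bp, against 1244 to 1297 bp).

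Clustering of SREBP1 peaks with each other varied only a little with the number. Another SREBP1 midpoint lay within 10 kb for 26.9% of the first section (25.4 to 28.6%) and 24.1% of the last (22.6 to 25.7%), against 27.6% of all SREBP1 peaks. The difference was 2.80 points (0.572 to 5.03), and the first section was the higher on 16 of 21 chromosomes. The share was highest in sections 2 to 5, at 29.5 to 30.0%. With the raw number over all chromosomes in place of sections per chromosome, the order of the ends turned, with the last section (27.4%) slightly above the first, whose interval of 25.4 to 28.6% includes it. Within 50 kb the share was 85.0% in the first section, 87.4% in the third and 77.5% in the last. The median distance to the nearest SREBP1 peak was 17621 bp in the first section, 16126 bp in the second and 20700 bp in the last.

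At close range the pattern was a different one. A neighbour within 2 kb was found for 1.66% of the first section (1.26 to 2.19%) and 1.64% of the last (1.24 to 2.16%), but for 5.13% of the fourth (4.39 to 5.99%). Close pairs were thus most frequent in the middle of the lists, and the nearest 2 midpoints in the whole list lay 653 bp apart. Among SREBP1 peaks that met H3K27ac, the share with a second SREBP1 peak in the same H3K27ac peak followed the same course. It was 0.910% in the first section, 3.91% in the fourth and 1.12% in the last.

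**Figure D5:**
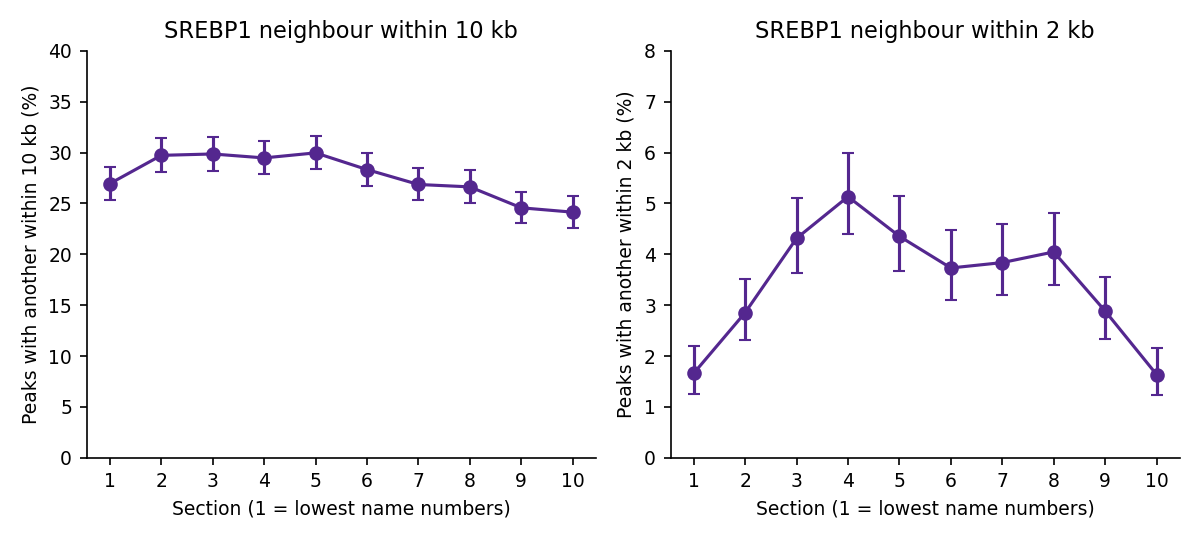
Share of SREBP1 peaks (y axes, %) with another SREBP1 midpoint within 10 kb (left) and within 2 kb (right) in each section of the lists (x axes), with 95% Wilson intervals; the 2 axes have different scales. Within 10 kb the shares lie between 24.1% and 30.0%, and within 2 kb they are highest in the fourth section (5.13%) and lowest in the first and last (1.66% and 1.64%).

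The share in H3K27ac declined along the list both in clustered and in single peaks. Among peaks without a neighbour within 10 kb the share went from 93.5% in the first section to 23.4% in the last, and among those with one from 92.2% to 27.4%. In the first section the 2 kinds had overlapping intervals. In the last, the clustered peaks were higher (24.2 to 30.8% against 21.7 to 25.2%), with intervals that overlap. Peaks with a neighbour had the higher share in each of sections 2 to 10, and in the seventh the intervals did not overlap, with 40.3% (37.0 to 43.8%) against 34.7% (32.7 to 36.8%). In the first section 26.7% of the peaks that met H3K27ac and 30.5% of the others had a neighbour, with overlapping intervals. In the last section the shares were 27.1% and 23.2%.

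Most neighbours came from another section, but peaks at each end of the list had the largest share of nearest neighbours from that end. Of the 795 first-section peaks with a neighbour within 10 kb, 31.7% (28.6 to 35.0%) had a nearest neighbour that was also in the first section. That was so for 13.8% of the second section, and for 4.70 to 8.65% of the others. Last-section peaks had a last-section nearest neighbour in 18.5% of cases, against 5.41% for the first section. Numbers follow position inside runs, which places some neighbours of a long run in the same section, and this part of the 18.5% was not separated. Of the 4453 adjacent pairs within 10 kb, 782 (17.6%) had both members in the same section. Both members met H3K27ac in 34.5% of the pairs, one in 40.3% and neither in 25.2%. In 187 pairs (4.20%) both met the same H3K27ac peak.

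Most SREBP1 peaks stood alone. With midpoints joined across gaps of up to 10 kb, 21297 of the 29435 peaks were single, 3075 clusters held 2 and 483 held 3. The share in H3K27ac was 50.1% for single peaks, 53.9% in pairs, 55.3% in clusters of 3 and 58.2% in those of 4 or 5 (304 of 522 peaks). The largest cluster held 11 peaks over 47870 bp on chromosome 14 (46777318 to 46825187). Its numbers went from 32 to 846, 4 of its peaks were in the first section and none in the last, and 6 met H3K27ac, in 5 separate acetylated peaks. The next held 6 peaks on chromosome 10 (92437784 to 92467401), in sections 4 to 8, of which 4 met H3K27ac. One of several clusters of 5, on chromosome 1 (25859364 to 25887060), lay in sections 3 to 6, and 3 of its peaks met H3K27ac.

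The S16 factor lists showed the same order. As a ratio of the first section to the last, the decline was 3.82-fold for H3K27ac and larger for each factor, from 7.79-fold (YY1) to 14.3-fold (NR2F2). In percentage points YY1 differed more than H3K27ac (80.3 against 68.7), and TEAD1 (48.7), NR2F2 (46.3) and RXRG (24.8) differed less. YY1 was met by 92.1% of the first section, 32.3% of the fifth and 11.8% of the last, against 38.6% of all SREBP1 peaks. TEAD1 went from 55.8% to 7.09% (22.2% of all), NR2F2 from 49.7% to 3.48% (16% of all), and RXRG from 27.7% to 2.97% (9.04% of all). All 4 factors and H3K27ac were met together by 440 first-section peaks (14.9%) and by 12 of the last (0.409%), against 3.79% of all. No S16 list at all was met by 4.07% of the first section and 72.6% of the last, against 44.4% of all. Inside H3K27ac the factors were less frequent at high numbers too. There YY1 was met by 96.4% of first-section peaks and 41.8% of last-section peaks, against 70.1% of all SREBP1 peaks inside H3K27ac. The H3K27ac and CUT&RUN lists come from the same cell line, and sites shared among them are not independent of each other.

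The order by number was visible both with and without YY1. Among SREBP1 peaks that met YY1, H3K27ac was met by 97.5% in the first section and 86.2% in the last, a difference of 11.3 points (7.99 to 15.4). Among those without YY1 it was met by 42.5% (36.3 to 48.9%) and 16.1% (14.7 to 17.6%), a difference of 26.4 points (20.1 to 33.0). Where no factor was met, the shares were 40.3% and 14.5%. First-section peaks outside H3K27ac still met factor peaks in part. Of those 203 peaks, 34.0% met YY1, 22.7% TEAD1 and 12.8% NR2F2. Of the 2218 last-section peaks outside S16 H3K27ac, the shares were 2.16%, 1.76% and 0.586%. RXRG was met by 5.91% (12 peaks) in the first section and 1.13% in the last. In sections 2 to 9 its share lay between 0.717% and 1.33%, without a steady decline.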

How the data were processed

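Of 7 samples, the deposited peak list of nerve SREBP1 (ChIP-seq) was set against that of S16 H3K27ac (ChIP-seq), and against the CUT&RUN lists of YY1, TEAD1, NR2F2 and RXRG. The deposited lists give chromosome, start and end (another kind of value, in bp). The SREBP1 list also gives a name, a strand and the deposited score, which is 1 throughout. Tools listed in the submitters' processing notes are Bowtie2, bcl2fastq 2.20.0.422, deepTools, bedtools and MACS2, with rn5 as the build. Tool settings, peak-call thresholds and read depth, which bear on where a list ends, are unknown here. The nerve input was not analysed here.

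Peaks were shared at 1 bp or more. The H3K27ac peak with the longest overlap counted as the one met. Distances are between edges, and clustering is between midpoints. The 10 sections come from the order of name numbers within each chromosome. Shares have Wilson intervals, medians order-statistic intervals and differences Newcombe intervals, all at 95%. The share of window positions was counted exactly. With 1 library per target no test was made. Named peaks are the lowest-numbered of the 5 chromosomes with the longest lists, the widest H3K27ac peaks met by the first and last section, the widest H3K27ac peaks with the most SREBP1 peaks, the largest clusters and the farthest first-section peaks. The number 1 of chromosome 6 was named after its values were seen. H3K27ac peaks on unplaced sequence (166) had no SREBP1 list to meet. Members, sections and measures were chosen with earlier results of these data known. Runs were found after the files were seen. Overlap and distance functions were checked on simulated data with known answers. Python 3.11.15, NumPy 2.4.6, SciPy 1.17.1, pandas 2.3.3 and Matplotlib 3.10.9 were used.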

Additional observations from a re-analysis of the deposited data

How the results depend on the processing

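Of 267 values of 9 results under alternatives, 235 stayed within the counting interval of the reported value and 32 moved out of it. Of the 235, 189 came from leaving out each chromosome in turn, which keeps most of the peaks behind the reported value. Keeping only H3K27ac peaks on placed chromosomes could change no value, because no SREBP1 peak lay elsewhere. All 32 values that moved came from the other alternatives, so the 235 does not measure how the results held under those. The share in H3K27ac was 80.5% in the first section and 17.7% in the last (difference 62.9 points) with 50% of the SREBP1 peak covered. It was 80.5% and 17.8% (62.7) with the midpoint inside, 96.5% and 32.6% (63.9) with H3K27ac extended by 500 bp, and 78.9% and 18.0% (60.9) with H3K27ac peaks wider than the median only. With the raw number over all chromosomes it was 91.8% and 30.7% (61.1), and with 5 sections 87.6% and 26.4% (61.2). The raw number also gave a last distance of 5862.5 bp and a last share with a neighbour of 27.4%, which turned the order of the ends in clustering. With 5 sections the first width was 1201.5 bp and the last 1184 bp, the turned order of the reported widths, with overlapping intervals. For H3K27ac peaks that hold the midpoint, widths were 1230.5 bp (1202 to 1253) and 1358 bp (1290 to 1419), intervals that do not overlap, unlike those reported. A neighbour was found for 1.66% and 1.64% within 2 kb, 85.0% and 77.5% within 50 kb, and 8.91% and 4.71% when it had to be in the same section. Of 3 alternatives chosen after seeing the data, peaks without a neighbour within 10 kb gave a last distance of 9283.5 bp. Sections of equal ranges of numbers gave a first share of 89.96% and a difference of 65.1 points, and whole runs moved nothing out of its interval.

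Without each of the 21 chromosomes in turn, all 189 values stayed within their intervals. The share in H3K27ac was 92.7 to 93.4% in the first section and 23.8 to 24.8% in the last, with a difference of 68.2 to 69.3 points. Widths were 1155 to 1172 bp and 1164 to 1194.5 bp, with the order turned without chromosome 3 (1172 and 1164 bp). Distances were 426 to 620 bp and 7053 to 7798 bp, and shares with a neighbour 26.6 to 27.4% and 23.4 to 24.5%. No paired analysis was possible because each target has 1 library. Read depth is unknown, so a site missing from the S16 list may be one that was not detected there, and the difference between nerve and cell line cannot be told apart from that between the targets.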

Other observations

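Numbers at the high end of the lists were carried less often by the peaks analysed here. The highest numbers of the 21 chromosomes add up to 51070, of which 29435 (57.6%) belong to a peak of the list. In the lowest of 10 equal ranges of numbers 92.5% were in use, in the second 73.4%, in the fifth 53.8% and in the highest 42.7%. Equal counts of peaks near the end of a list thus span more numbers than near its start. By ranges of numbers in place of sections of equal size, the share in H3K27ac went from 89.96% over 42.4% in the fifth range to 24.9% in the highest.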
